A study of Mus musculus with 8 samples.

Results

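Olfactory receptor genes were examined for the histone mark H3K27me3 in mouse liver, over 4 large clusters of these genes on chromosomes 2, 7, 9 and 19. The clusters were taken as fixed mm9 intervals and cut into 10 kb bins. They were chr2:85000001-90400000 (540 bins), chr7:109600001-116100000 (650 bins), chr9:37400001-40200000 (280 bins) and chr19:12400001-14000000 (160 bins). Together they held 1630 of the 265500 bins of the mm9 chromosomes, and no measured value entered their choice. The value of a bin was the percent of its length under islands, which are the stretches that the authors' island caller listed as enriched for the mark in a library. The libraries came from chromatin immunoprecipitation of H3K27me3 from frozen liver. The donors were CD-1 (ICR) males, which are outbred, obtained at 7 weeks of age. Mice had received TCPOBOP at 3 mg/kg, an agonist of the nuclear receptor CAR, or its vehicle, corn oil with 1% DMSO, and tissue was taken 3 h later. Fragments of 600 to 1100 bp, digested to 500 bp, gave 3 vehicle and 3 TCPOBOP libraries, each from its own liver. Fragments over 1100 bp, digested to 200 bp, gave 1 further library per treatment, made from the ChIP samples of replicate 1. Liver tissue mixes cell types, so the cell type behind an island is not given by these lists.

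Olfactory receptors are G protein-coupled receptors that bind odorants at the surface of sensory neurons of the nose. Each such neuron expresses a single receptor gene, and the family is among the largest in the mouse genome, arranged in long tandem clusters. H3K27me3 is laid down by Polycomb repressive complex 2 and is best known over silent developmental regulators with CpG-rich promoters. Receptor genes that are silent in olfactory neurons are known instead for the marks of constitutive heterochromatin.

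The size of the gene family at these places was read from the RefSeq gene table of assembly GRCm38.p6. The island lists are in mm9, so the order of genes was used and no position was carried over, and single islands were not assigned to genes. On chromosome 2 the longest unbroken run of receptor genes held 123 genes from Olfr153 to Olfr1274, between Pramel6 and Ptprj, which encodes a receptor tyrosine phosphatase. Allowing up to 5 other protein-coding genes between neighbours, a spacing chosen after the table was seen, joined 222 of the 287 receptor genes of chromosome 2 into a series broken by Fads2b, Pramel7 and Pramel6 alone. The chromosome 7 genes were more interrupted. Their longest unbroken run held 42 of the 239 on the chromosome, from Olfr467 to Olfr519 between Ovch2 and Nlrp10. Their longest spaced series held 91, and 13 other genes lay inside it, among them the beta-globin genes Hbb-bt, Hbb-bs and Hbb-y, which encode a chain of haemoglobin. On chromosome 9 the unbroken run held 40 genes from Olfr160 to Olfr919, and the spaced series held 95 of the 130 on the chromosome. On chromosome 19 the unbroken run held 41 of 63, from Olfr1444 to Olfr1505, between Lpxn and Tle4, a gene for a transcriptional corepressor.

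The promoters of these genes were poor in CpG, the dinucleotide that is dense at most Polycomb targets. RefSeq windows from 250 bases before to 50 after the annotated start were matched by gene ID for 944 of 1110 protein-coding receptor genes. They held a median of 1 CpG in 300 bases, and 33.5% held none. In 26081 other genes, not limited to protein-coding ones, the median was 8 and 4.77% held none. At least 1 CpG, the letters CG on either strand, was thus present in 66.5% of receptor windows and 95.2% of the others. The median GC content was 35% against 53.3%. In the unbroken runs the median was 1 CpG on all 4 chromosomes, over 112, 39, 33 and 38 windows on chromosomes 2, 7, 9 and 19. In 72.7% of the receptor windows a start codon stood at the annotated start, so many of these gene models begin at the coding sequence and the true promoter may lie elsewhere. The 258 receptor windows without a start codon there also had a median of 1 CpG. The 22 Hox genes with an entry, classical Polycomb targets, had a median of 13.5 CpG and each held at least 1. The windows of the first receptor gene with an entry in each run are printed from GRCm38.p6, 5′ to 3′ on the gene's own strand, with CpG in capitals. Olfr153, Olfr467 and Olfr1444 lie on the plus strand and Olfr160 and Hoxa2 on the minus strand. The window of Hoxa2, the first HoxA gene of the table in genome order, is set beside them to show the contrast and was chosen after the counts were known.
Olfr153: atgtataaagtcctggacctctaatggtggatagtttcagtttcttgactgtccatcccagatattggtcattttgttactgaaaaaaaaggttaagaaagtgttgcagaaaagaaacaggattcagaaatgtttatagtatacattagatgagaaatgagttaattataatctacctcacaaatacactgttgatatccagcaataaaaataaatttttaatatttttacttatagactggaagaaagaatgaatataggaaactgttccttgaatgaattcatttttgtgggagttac
Olfr467: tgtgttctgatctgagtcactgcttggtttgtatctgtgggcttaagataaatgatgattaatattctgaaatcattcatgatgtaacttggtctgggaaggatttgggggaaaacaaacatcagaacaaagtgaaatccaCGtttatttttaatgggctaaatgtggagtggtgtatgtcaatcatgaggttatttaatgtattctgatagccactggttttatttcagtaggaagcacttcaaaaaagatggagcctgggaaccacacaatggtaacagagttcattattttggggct
Olfr160: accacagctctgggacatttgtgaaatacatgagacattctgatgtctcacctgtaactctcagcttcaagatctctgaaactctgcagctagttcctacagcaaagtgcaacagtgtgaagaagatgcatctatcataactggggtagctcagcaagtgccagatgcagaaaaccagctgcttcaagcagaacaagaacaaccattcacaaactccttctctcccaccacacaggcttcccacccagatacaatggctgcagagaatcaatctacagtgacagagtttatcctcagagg
Olfr1444: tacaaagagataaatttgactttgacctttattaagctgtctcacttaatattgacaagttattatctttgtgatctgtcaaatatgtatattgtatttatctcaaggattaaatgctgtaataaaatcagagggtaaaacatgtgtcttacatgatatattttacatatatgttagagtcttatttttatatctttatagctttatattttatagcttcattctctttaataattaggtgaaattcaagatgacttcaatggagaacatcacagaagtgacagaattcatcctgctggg
Hoxa2: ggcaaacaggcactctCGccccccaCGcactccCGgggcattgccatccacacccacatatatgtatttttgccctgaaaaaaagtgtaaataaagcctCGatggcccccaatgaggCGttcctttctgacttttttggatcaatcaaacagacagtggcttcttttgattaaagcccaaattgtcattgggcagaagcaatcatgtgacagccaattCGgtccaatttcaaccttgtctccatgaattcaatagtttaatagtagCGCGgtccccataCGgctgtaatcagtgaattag
Olfr467 held 1 CpG and the other 3 receptor windows held 0, while the Hoxa2 window held 9. The GC content was 30% for Olfr153, 37.3% for Olfr467, 46% for Olfr160, 27.7% for Olfr1444 and 45.7% for Hoxa2, so Olfr160 and Hoxa2 were alike in GC and differed in CpG.

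**Figure D1:**
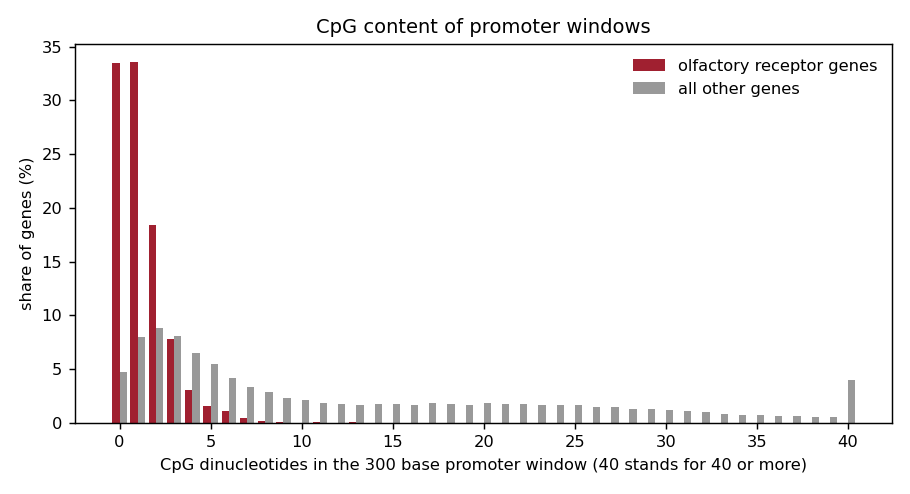
Share of genes (y axis, percent) by the number of CpG dinucleotides in the 300 base promoter window (x axis), for 944 olfactory receptor genes (red) and 26081 other genes (grey). Receptor genes gather at 0 to 2 CpG, while the other genes spread over the whole axis.

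The 6 lists of 600 to 1100 bp held 6295 to 14748 islands, covering 7.04 to 13.7% of the autosomes, fewest and least in TCPOBOP replicate 3. The 2 lists of fragments over 1100 bp covered 26.4 and 27.3%. The files give no read counts, so the depth is unknown and no counting interval was computed. Receptor genes resemble one another in sequence, and the part that reads matching several of them play in the cover was not tested. A window over the HoxA cluster was 100% covered in all 8 lists. A window over Alb and Afp, genes of serum albumin and alpha-fetoprotein, was 0% covered in all 8. Both windows, like that over beta-globin below, were set from approximate knowledge of mm9 positions. In the lists over 1100 bp some rows may be missing, so a place without islands there may still carry the mark.

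All 4 clusters carried far less of the mark's islands than the rest of their chromosomes, in each of the 6 livers. In the mean over livers the chromosome 2 cluster was emptiest and the chromosome 7 cluster least so, an order that single livers did not all follow. The chromosome 2 cluster was 0.437, 0.444 and 0% covered in vehicle replicates 1 to 3 and 0.185, 0.696 and 0.770% covered in TCPOBOP replicates 1 to 3. The other bins of chromosome 2 were 8.47 to 16.2% covered in the same livers. In the chromosome 7 cluster the values were 3.16, 4.30 and 2.43% with vehicle and 3.26, 3.27 and 1.92% with TCPOBOP, against 8.49 to 18% in the other bins of chromosome 7. No liver's cluster value reached the lowest value outside, on either chromosome.

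In the chromosome 9 cluster, cover was 1.99, 3.06 and 1.3% with vehicle and 2.39, 4.41 and 0% with TCPOBOP, with 9.85 to 20.5% outside. In the chromosome 19 cluster it was 1.53, 2.60 and 1.38% with vehicle and 0% in each TCPOBOP liver, with 11.4 to 17.2% outside. The zero values belonged to TCPOBOP replicate 3 on chromosome 9, to vehicle replicate 3 on chromosome 2, and to all 3 TCPOBOP livers on chromosome 19. TCPOBOP replicate 3 and vehicle replicate 3 were also the libraries with the least cover of the autosomes.

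Taking each liver's cluster value minus its value outside, the mean difference was -11.8 ± 2.84 percentage points on chromosome 2 and -9.91 ± 2.96 on chromosome 7 (SD, n = 6, both treatments pooled). It was -12.8 ± 3.21 on chromosome 9 and -13.7 ± 2.21 on chromosome 19 (SD, n = 6). The cluster was lower in 6 of 6 livers on every chromosome, and each difference was larger than the spread between livers. A two-sided exact permutation test over sign flips gave p = 0.03125 for each cluster, the smallest that 6 livers allow, and 0.03125 after Benjamini-Hochberg adjustment over the 4 clusters. In mean cover the rest of the chromosome exceeded the cluster 29.0-fold on chromosome 2, 16-fold on chromosome 19, 6.82-fold on chromosome 9 and 4.24-fold on chromosome 7. Island cover depends on the caller's threshold in each library, so these are ratios of listed territory and not of the mark itself.

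**Figure D2:**
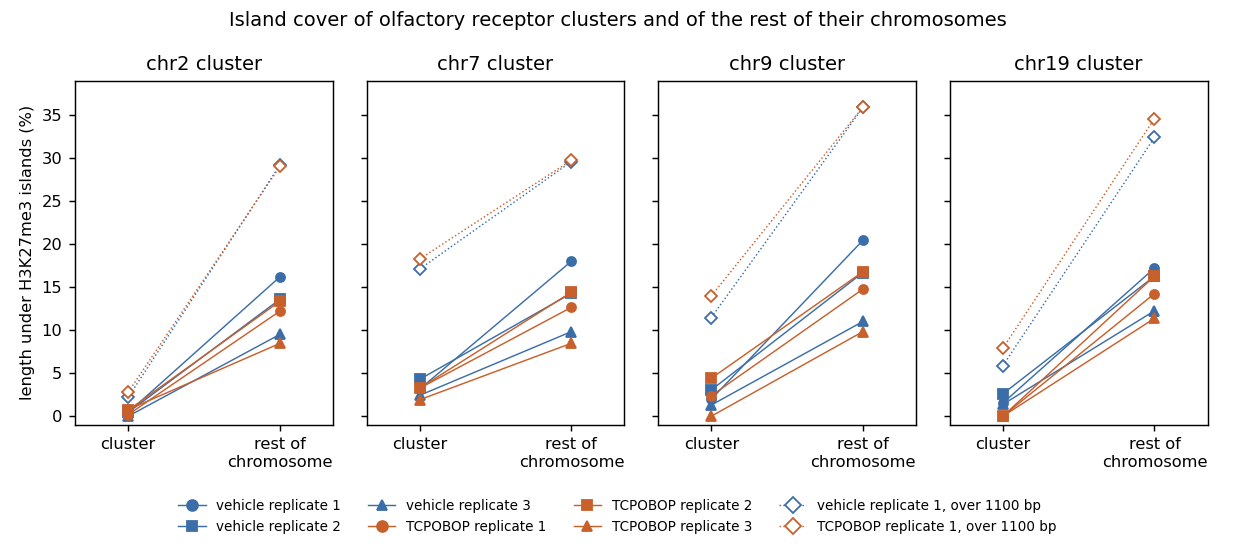
Percent of length under islands (y axis) in each cluster and in all other bins of its chromosome, 1 line per library. Filled symbols are the 6 livers at 600 to 1100 bp, open diamonds the 2 lists over 1100 bp, blue vehicle and orange TCPOBOP. Every line rises from cluster to rest.

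The order of the 4 clusters among themselves was less firm. The chromosome 2 cluster minus the chromosome 7 cluster was -2.63 percentage points (SD 0.887), lower in 6 of 6 livers. The chromosome 7 cluster exceeded that of chromosome 19 by 2.14 points (SD 0.917), also in 6 of 6. Over the 6 pairs of clusters neither passed 0.05 after adjustment (exact permutation p = 0.03125, adjusted 0.09375, n = 6). The chromosome 9 cluster lay between, with adjusted p of 0.125 to 0.15 against the other 3 in the same exact permutation test. Chromosome 2 minus chromosome 19 was the smallest difference, -0.494 percentage points with an SD of 1.21 (exact permutation p = 0.375, n = 6).

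Whole windows of the cluster's own length gave a second view, because neighbouring bins share islands. Windows were tiled outward from the cluster, leaving out the first 3 Mb of the chromosome, and ranked by mean cover over the 6 livers. The chromosome 2 cluster, at 0.422%, was the second lowest of 32 windows, and the others had a median of 9.73%. The chromosome 19 cluster, at 0.917%, was the third lowest of 35 (median of the others 13.5%). The chromosome 9 cluster, at 2.19%, was the fifth lowest of 42 (median of the others 12%), and the chromosome 7 cluster, at 3.06%, the sixth lowest of 22 (median of the others 8.51%). Every chromosome thus had at least 1 other window of that length with less cover, and low cover was not particular to the receptor clusters. The ranks are a description and carry no test.

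**Figure D3:**
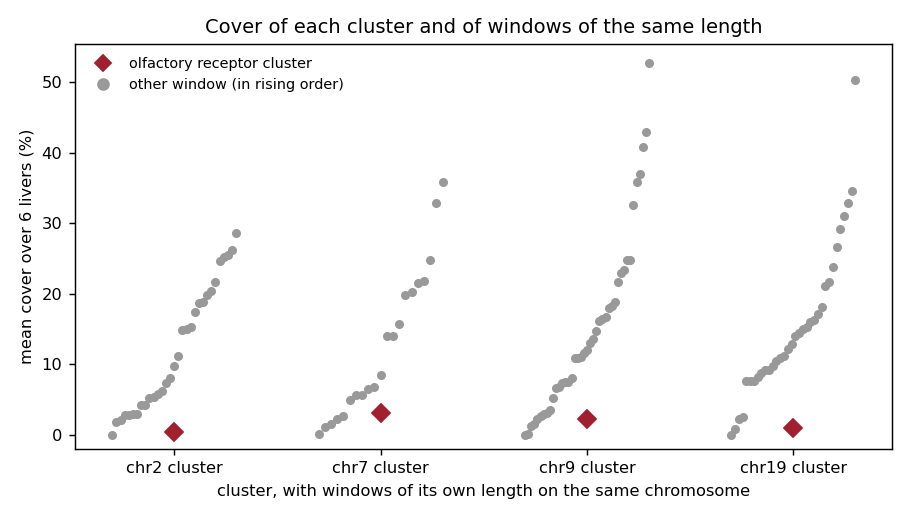
Mean cover over 6 livers (y axis, percent) of each olfactory receptor cluster (red diamond) and of the other windows of the same length on its chromosome (grey, in rising order). The clusters sit among the lowest windows, with 1 to 5 windows below each.

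Outside chromosome 7, most of the little cover in the 6 livers lay near the rims. In the chromosome 2 cluster every island of the 6 livers fell in the first 100 kb. From 85100001 to 90400000, a stretch of 5300 kb, none of the 6 livers held an island, and from 85390001 to 89840000 none of the 8 lists did, over 4450 kb. Without its outer 200 kb on each side the cluster was 0% covered in 6 of 6 livers. At its left rim, the bin from 85000001 to 85010000 was 100% covered in vehicle replicate 1 and TCPOBOP replicate 1 and 68% in TCPOBOP replicate 2. The 20 kb from 85070001 to 85090000 were 78% covered in vehicle replicate 2 and 100% in TCPOBOP replicates 2 and 3. Both places were at 0% in the other 3 livers, and each was shared by livers of both treatments.

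In the 6 livers the chromosome 9 cluster had most of its cover at the right rim. The last 200 kb were 27.8, 32 and 15% covered with vehicle and 30.2, 51.2 and 0% with TCPOBOP. The inner part was 0 to 0.9% covered in the 6 livers. From 37480001 to 39400000, over 1920 kb, no liver held an island, and 720 kb from 38590001 were empty in all 8 lists. The bin from 40140001 to 40150000 was the most recurrent, at 50% or more in 5 of 6 livers and at 0% in TCPOBOP replicate 3. In TCPOBOP replicate 1 an island of 92.4 kb began at 40197601, within the last bin, and ran on past the cluster. With a score of 881 it was the strongest island touching any cluster in that list and ranked 125 of 13759.

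On chromosome 19 the islands lay in the left part. From 12930001 to 14000000, over 1070 kb, none of the 6 livers held an island, and the last 980 kb were empty in all 8 lists. Among the 6 livers the inner part was covered in vehicle replicate 2 alone, at 1.1%, by an island that began 510 kb into the cluster.

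Immediately outside, the flanks of 500 kb on both sides were well covered next to the chromosome 9 cluster, at 37.1 ± 8.09% (SD, n = 6), with 32.6% on the left and 41.6% on the right. They were 13.7 ± 3.96% covered around the chromosome 2 cluster and 14.9 ± 7.80% around that of chromosome 7 (SD, n = 6). The chromosome 7 flanks were uneven, at 2.56% on the left and 27.2% on the right, so on average that cluster's left flank was no more covered than the cluster. Around the chromosome 19 cluster they were 6.58 ± 5.34% covered (SD, n = 6). Cluster minus flanks was -13.3, -11.8 and -34.9 percentage points on chromosomes 2, 7 and 9, lower in 6 of 6 livers (exact permutation p = 0.03125, adjusted 0.0417). On chromosome 19 it was -5.66 points, lower in 5 of 6 livers (exact permutation p = 0.0625, adjusted 0.0625), and vehicle replicate 1 had no island in those flanks. With 1 Mb flanks the chromosome 19 difference was -12.9 points (exact permutation p = 0.03125, n = 6). With the score minimum described below for the treatment comparison it was -2.82 points (exact permutation p = 0.156, n = 6), so its size depended on both choices.

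**Figure D4:**
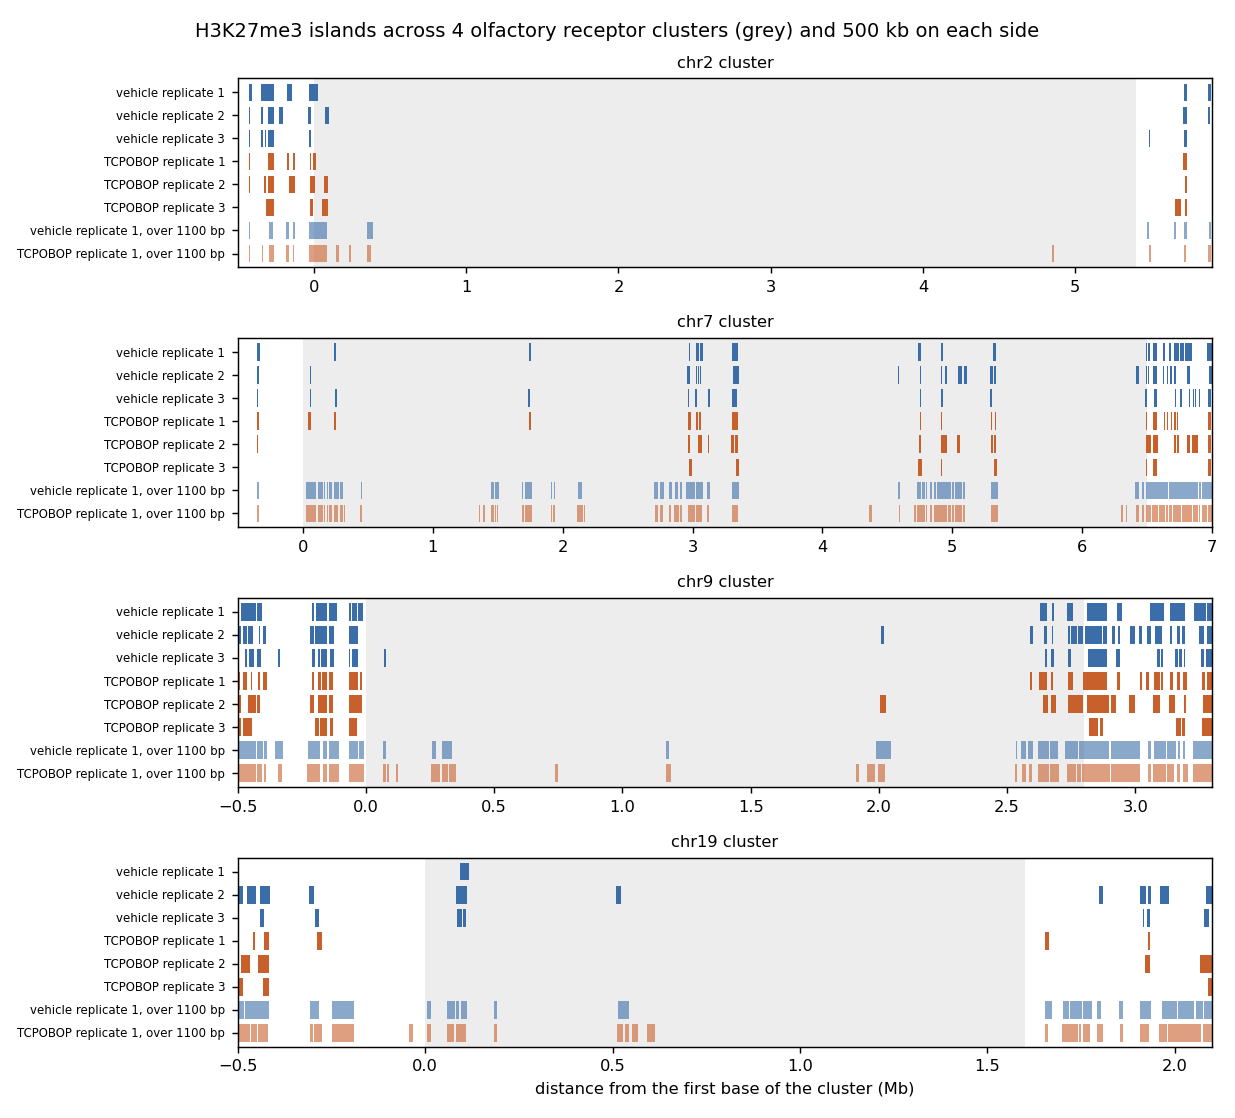
Islands of each library (rows) across the 4 clusters (grey) and 500 kb on each side, by distance from the cluster's first base (x axis, Mb). Blue is vehicle, orange TCPOBOP, and pale bars are fragments over 1100 bp. The chromosome 2, 9 and 19 clusters are nearly bare inside, while chromosome 7 shows islands at the same places in many rows.

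Islands that came back in every liver were found in the chromosome 7 cluster alone among the 4. At 50% cover or more, 5 of the 1630 cluster bins (0.307%) were covered in all 6 livers, against 2.67% of all bins of the genome and 3.88% of the other bins of these 4 chromosomes. In the other direction, 1534 cluster bins (94.1%) had no island in any of the 6 livers, against 67.3% outside. The highest number of livers that shared a bin at 50% or more was 3 on chromosome 2, 5 on chromosome 9 and 3 on chromosome 19.

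By base, 5 stretches of 3.2 to 12.4 kb, 34.4 kb in all, lay under islands in all 6 livers and also in both lists over 1100 bp. The widest ran from 112930401 to 112942800. Its bin from 112930001 to 112940000 was 100% covered in 5 livers and 96% in TCPOBOP replicate 3. The islands over it were 15.2 to 44.8 kb wide with vehicle and 19.2 to 51.6 kb wide with TCPOBOP. They were the strongest islands touching any cluster in the 3 vehicle lists, with scores of 421, 454 and 157. Even so they ranked 1484 of 10057, 855 of 14748 and 1720 of 12430 in those lists.

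The stretch from 114348401 to 114355600 (7.2 kb) was part of a bin covered 100, 100 and 56% with vehicle and 100, 92 and 100% with TCPOBOP. The island over it was the strongest in the clusters in TCPOBOP replicate 3, with a score of 187 and rank 1160 of 6295. In TCPOBOP replicate 2 the strongest lay in the chromosome 9 cluster, from 40136401 to 40196800, with a score of 272. The stretch from 112572801 to 112576000 (3.2 kb) had a bin covered 56, 100 and 60% with vehicle and 100, 92 and 84% with TCPOBOP. Its island in vehicle replicate 3 scored 41.4, close to the lowest score of that list, 41. The remaining stretches ran from 114512401 to 114517200 and from 116092801 to 116099600, the latter 0.4 kb from the right edge of the cluster.

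Along the chromosome 7 cluster the cover came in blocks. The segment of 500 kb that begins 3 Mb into the cluster was 18.5, 14.5 and 13.1% covered with vehicle and 16, 14.6 and 5.52% with TCPOBOP. The segments that begin at 4.5 and 5 Mb had means of 8.01 and 7.13% over the 6 livers. Between these blocks, the segments beginning at 3.5 and 4 Mb were at 0% in all 6 livers, and 990 kb from 112960001 were empty in all 8 lists. The longest stretch of the cluster without an island in the 6 livers ran for 1460 kb, from 109870001 to 111330000. It includes the window of 200 kb over the beta-globin genes, which was 0% covered in all 6 livers and 22 and 32.4% covered in the vehicle and TCPOBOP lists over 1100 bp.

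**Figure D5:**
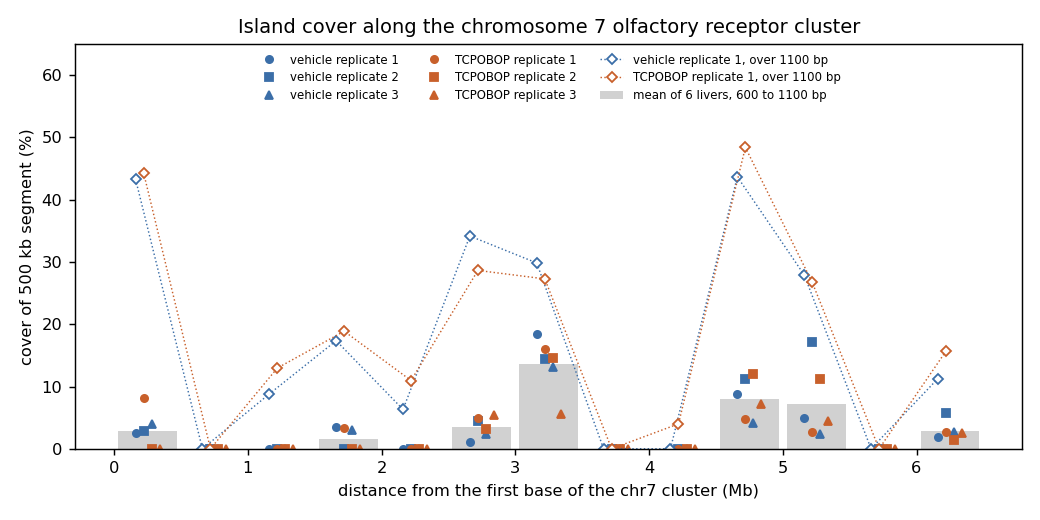
Island cover (y axis, percent) of 500 kb segments along the chromosome 7 cluster (x axis, distance from its first base in Mb). Bars are means of 6 livers, filled symbols single livers and open diamonds the lists over 1100 bp. Cover is highest in the 6 livers at 3 to 3.5 Mb and returns to 0 at 3.5 to 4.5 Mb and at 5.5 to 6 Mb.

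Cluster islands were spread on both sides of the median score of their own lists. The score is the authors' value and was ranked within each list. Between 7 and 26 islands touched a cluster per list of 600 to 1100 bp, and 57.1 to 68.8% of them scored below the median of their list in 5 of the 6 livers. In TCPOBOP replicate 1 it was 7 of 18 islands (38.9%). By definition 50% of all islands of a list lie below its median, and the counts are small.

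The livers' agreement on covered bins varied more from pair to pair inside the clusters than outside. Over 15 pairs of livers, the mean share of bins at 50% or more in both, of those at 50% or more in either, was 0.364 in the chromosome 7 cluster (0.208 to 0.571) and 0.439 in the rest of that chromosome (0.342 to 0.545), with overlapping ranges. The pairs ran from 0 to 0.6 in the chromosome 2 cluster, from 0 to 0.615 in that of chromosome 9 and from 0 to 0.75 in that of chromosome 19. Pairs in which only 1 liver had a covered bin in the cluster are at 0 by construction. Pairs in which neither had one have no value, which left 12 of the 15 pairs in the chromosome 19 cluster. The pairs share livers, and few bins enter the cluster values, so these are given without a test.

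The treatment comparison asked whether TCPOBOP changed H3K27me3 over the receptor clusters by 3 h. Over the 4 clusters together, cover was 1.9, 2.64 and 1.33% after vehicle and 1.77, 2.29 and 1.02% after TCPOBOP. The treatments overlapped, with means of 1.96 ± 0.658% and 1.69 ± 0.639% (SD, n = 3 each, exact permutation p = 0.7, adjusted over 5 comparisons 0.875). The chromosome 2 cluster was at 0.294 ± 0.254% and 0.551 ± 0.319%, again vehicle first (SD, n = 3 each, exact permutation p = 0.4). Without TCPOBOP replicate 1 the difference there was 0.440 percentage points and the livers no longer overlapped, but without the outer 200 kb it was 0. The chromosome 7 cluster was at 3.30 ± 0.939% and 2.82 ± 0.776% (SD, n = 3 each, exact permutation p = 0.6). The chromosome 9 cluster was at 2.11 ± 0.886% and 2.27 ± 2.21% (SD, n = 3 each, exact permutation p = 0.9). The livers of the treatments overlapped in these 3 clusters, and the differences were within their spread. With 3 livers against 3 the smallest p is 0.1, so no comparison could pass 0.05. The direction on chromosome 9 was turned by leaving out vehicle replicate 3 (-0.255 points) or TCPOBOP replicate 2 (-0.921), and that on chromosome 7 by leaving out vehicle replicate 2 (0.0195).

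The chromosome 19 cluster was the 1 cluster whose treatments did not overlap, at 1.83 ± 0.668% (SD, n = 3) against 0% in all 3 TCPOBOP livers (exact permutation p = 0.1, adjusted 0.5). Among 1.6 Mb windows tiled over the autosomes, vehicle was higher without overlap in 2.67% and TCPOBOP in 0.781%. The lack of overlap came from a single place near the left rim. The mean difference also held an island of 13.2 kb in vehicle replicate 2, farther inside the cluster. The 20 kb from 12490001 to 12510000 were 92, 100 and 82% covered after vehicle and 0% covered in each TCPOBOP liver. These 2 bins were the only ones of the 1630 at 50% or more in all vehicle livers and at 0% in all TCPOBOP livers (0.123%), against 0.09% of all bins of the genome. In the opposite direction there were 0 cluster bins, against 0.0185% of the genome. By the looser measure of no overlap between treatments, vehicle was higher in 3 cluster bins (0.184%), against 0.631% of the genome, and TCPOBOP in 0, against 0.208%. A bin with no island in any of the 6 livers cannot separate the treatments. Such bins made up 94.1% of the clusters and 67.3% of the other bins of the 4 chromosomes. These shares therefore follow the low cover of the clusters and are not read as a result about treatment.

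The vehicle islands over this place differed in rank within their lists. The island scored 100 in vehicle replicate 1, rank 8578 of 10057 and below the median of that list. In replicate 2 it scored 135, rank 4738 of 14748 and above the median. In replicate 3 there were 2 islands with scores of 52.1 and 45.6, ranks 8925 and 10710 of 12430, both below the median. The lowest scores that the TCPOBOP lists held were 44.2, 71.0 and 77.7. With islands of all 6 lists held to a score of at least 84.6, the chromosome 19 cluster was 1.52, 1.77 and 0% covered with vehicle and 0% with TCPOBOP, and the treatments overlapped. This minimum was the lowest score of vehicle replicate 1, so it removed no island there. It lay above the median score of vehicle replicate 3, 68.1. Whether scores share 1 scale across lists was not tested. With each list cut to equal covered length, by keeping its strongest islands, the vehicle livers were at 0, 1.77 and 0.875% and the TCPOBOP livers at 0%, again with overlap. Fragments over 1100 bp gave islands at this place in both treatments. Of the 20 kb, 82% was covered in the vehicle list and 88% in the TCPOBOP list, where the island scored 531, rank 5271 of 22077. The TCPOBOP list came from the same ChIP sample as TCPOBOP replicate 1, whose list of 600 to 1100 bp held no island there.

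Over single bins, limma was fitted to the covered fraction of 36857 bins at 50% or more in at least 2 of the 6 libraries, of which 51 were cluster bins. With Benjamini-Hochberg adjustment it called 0% of all bins and 0 of the 51, while 1232 bins, 3 of them in the clusters, had an unadjusted p under 0.05. The bins from 12490001 and 12500001 on chromosome 19 differed by -89.3 (limma SE 13.4) and -93.3 percentage points (limma SE 14.4), with limma adjusted p of 0.253 and 0.254. The next cluster bin, on chromosome 7 from 112620001 to 112630000, was 60, 48 and 100% covered with vehicle and 20, 0 and 0% with TCPOBOP (limma adjusted p = 0.900). The median difference over the 51 cluster bins was 0 percentage points, against -4 over all bins tested. Without vehicle replicate 3, limma called 494 bins, of which 1 lay in the clusters, so that library decided the count.

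Fragments over 1100 bp gave more cover of the clusters, in both treatments, and kept their order with the rest of the chromosome. In the vehicle liver they covered 2.2% of the chromosome 2 cluster, 17.1% of that on chromosome 7, 11.5% on chromosome 9 and 5.88% on chromosome 19. In the TCPOBOP liver the values were 2.8, 18.3, 14 and 7.9%. The other bins of these chromosomes were 29.1 to 36.0% covered, so each cluster stayed below its chromosome in both lists. Cover of the chromosome 7 cluster was 5.41 and 5.61 times that of the 600 to 1100 bp list of the same ChIP sample, while outside the cluster it was 1.64 and 2.35 times. These lists hold more islands than those of 600 to 1100 bp, and their fragments were digested to 200 bp and not to 500 bp. Fragment length, digestion and the total cover of a list thus cannot be told apart, and 2 ChIP samples allow no test.

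In the clusters, most islands of the longer fragments lay where the shorter class had none. The same share was not computed outside the clusters, so it is not shown to be particular to them. In the chromosome 7 cluster, 9 of 41 islands of the vehicle list over 1100 bp and 11 of 53 of the TCPOBOP list overlay an island of the 600 to 1100 bp list of the same ChIP sample. On chromosome 19 none of the 8 islands of the longer TCPOBOP fragments could, since the shorter class had 0 there. In the other direction, of the cluster territory in the 600 to 1100 bp list of the same ChIP sample, they held 96.5 and 96.2% on chromosome 7 and 100% on chromosomes 2 and 9. On chromosome 19 they held 65.6% in the vehicle liver. The chromosome 2 values rest on 1 island per liver, with 23.6 and 10 kb in the cluster. The chromosome 19 value rests on 1 island of 24.4 kb. Outside the clusters the longer fragments held 84.1 and 88.9% of such territory on chromosome 7, vehicle first. They held 83.4 and 86.3% on chromosome 2, 85.2 and 88.1% on chromosome 9, and 80.2% on chromosome 19 in the vehicle liver. The first 500 kb of the chromosome 7 cluster were 43.3 and 44.3% covered by the longer fragments, against 0 to 8.16% in the 6 livers. The segments at 0.5 to 1 Mb, 3.5 to 4 Mb and 5.5 to 6 Mb were at 0% in all 8 lists. On chromosome 2 the longer fragments covered 40.2 and 49.2% of the first 200 kb and 0.768 and 1.06% of the inner part. They covered 6.92 and 9.65% of the inner part on chromosome 9 and 2.47 and 5.33% on chromosome 19, vehicle first. The outer 200 kb on each side held 48.4 and 40.9% of their cover on chromosome 9, less than in each liver with cover there (74.8 to 100%). On chromosome 2 the outer 200 kb held 67.7 and 65.1%, against 100% in each liver with cover there. On chromosome 19 they held 68.5 and 49.4%. The vehicle livers, the only ones with cover there, had 100, 68.3 and 100%. By rank among windows of equal length, the chromosome 2 cluster was again the second lowest of 32 in both lists and the chromosome 7 cluster the eighth lowest of 22.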

How the data were processed

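H3K27me3 was measured by ChIP-seq in 8 libraries. Per the submitters' processing notes, mm9, Bowtie2 2.3.2 and SICER 1.1 were used, with no role or order given. The deposited lists, called per library, give each island's position and score, and the file names give a window of 400 bp, a gap of 2400 bp and an E-value of 100. No read counts were used here, and the sources used here do not say how reads that match several receptor genes were handled. That handling bears on tandem gene families, where low mappability and absence of the mark cannot be told apart.

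Islands were converted to 1-based positions and laid over 10 kb bins (Python 3.11.15, numpy 2.4.6, pandas 2.3.3). Livers were compared by exact permutation tests with Benjamini-Hochberg adjustment, and bins by limma 3.58.1 (R 4.3.3) on the covered fraction with a trended variance. The exact tests were checked on small fixed examples, and limma was tested on simulated bins. Under the last of the simulation designs tried, limma recovered changes of a whole bin, which were set without spread between livers. That recovery need not hold for real livers, which differ. It missed changes of part of a bin and, as under the earlier design, also called unchanged bins, so its calls are not read as changes. Regions were named by rule: the longest runs covered in most livers, the longest runs at 0%, the strongest island per list, the bins covered in 1 treatment alone and the 3 bins with the smallest limma p. The members and lists were chosen with earlier results of these data known. The windows tiled over all autosomes, the separate left and right flanks, the 500 kb segments, the values of the inner part and the Hox promoters were added after the data had been seen, as was the reading of the chromosome 19 stretch in the lists over 1100 bp. No mm9 gene annotation was used here.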

Additional observations from a re-analysis of the deposited data

How the results depend on the processing

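The lower cover of the 4 clusters against their chromosomes kept its direction and stayed past the threshold with a score minimum and at equal covered length. It also did so with the fragment classes of replicate 1 merged and without the outer 200 kb. The same held with outside bins taken only within 10 Mb, or without the first 3 Mb of the chromosome. Keeping only outside bins under an island in at least 1 list raised the outside value by selection. On chromosome 2 it went from 12.2 to 28.3%, so that choice says nothing about the difference. Leaving out a liver gave -12.6 to -11.0 percentage points on chromosome 2, -10.6 to -8.91 on chromosome 7, -13.4 to -11.6 on chromosome 9 and -14.3 to -13.2 on chromosome 19. Against the flanks it gave -14.0 to -11.9, -13.6 to -9.46 and -36.9 to -32.6 on chromosomes 2, 7 and 9. These missed 0.05 by construction, since 5 livers cannot go below p = 0.0625 in the exact test. The chromosome 19 cluster differed from its flanks by -12.9 points with flanks of 1 Mb, past the threshold, but by -2.82 under the score minimum and -2.905 when lists were of equal length, both short of it. Leaving out a liver gave -7.10 to -4.24.

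TCPOBOP minus vehicle over the 4 clusters changed sign to 0.0826 points under the score minimum, 0.148 when lists were of equal length, 0.197 with the fragment classes merged and 1.69 after subtracting the rest of the chromosome. That subtraction gave 1.72 on chromosome 7. The last 2 values follow from the construction, because cover of the rest was lower with TCPOBOP. The cause of the others was not tested. Leaving out a liver gave -0.574 to 0.0826 for the 4 clusters, -0.913 to 0.0195 for chromosome 7 and -0.921 to 1.29 for chromosome 9. The sum over 4 clusters turned positive without vehicle replicate 2 (0.0826) or TCPOBOP replicate 3 (0.0769). Without the outer 200 kb the chromosome 2 value was 0. The chromosome 19 value was -0.367 points without the outer 200 kb and -0.825 with the fragment classes merged. After subtracting the rest of the chromosome it was -0.553. In each of these settings the treatments overlapped on chromosome 19.

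The 5 bins at 50% or more in all 6 livers became 2 under the score minimum, 1 when lists were of equal length and 1 at 80% cover. The 2 bins covered with vehicle alone became 0 under both of the first choices. Bins covered with TCPOBOP alone numbered 0 to 1 on leaving out a liver, with 1 found without TCPOBOP replicate 1. limma called 0 to 494 bins, and 0 to 1 in the clusters, on leaving out a liver, with calls arising without vehicle replicate 3. Its unadjusted p under 0.05 split into 283 higher and 949 lower bins, and into 741 higher and 323 lower after centring on the library mean.

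Replicate numbers did not pair the livers (correlations of 0.0158 to 0.0599 over bins). With a replicate block the chromosome 19 treatment difference was -1.83 points (exact permutation p = 0.25, the smallest 3 pairs allow), and limma called 0 bins, 1356 with unadjusted p under 0.05. Depth is unknown, so places with no island are not shown to lack the mark.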
